A study of Mus musculus with 32 samples.

Results

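Thymus was compared with mesenteric lymph node in 4 wild type mice, each of which gave both tissues. The arrays were chosen by their labels alone: 4 wild type thymus arrays and 4 wild type mesenteric lymph node arrays, 8 of the 32 arrays of the series. The mice were female C57BL/6 animals aged 12 weeks, non-transgenic littermates of mice labelled as carrying a CD2-CD30L transgene, that is, CD30 ligand (CD30L) driven on T cells. For reference, the same tissue difference was taken in the 4 transgenic mice of the series, and the peripheral lymph node and spleen arrays of the 4 wild type mice were used to place single genes. Total RNA of whole tissue was labelled with biotin and hybridised to an Affymetrix array, so each value is the brightness of a probe set, a group of probes for 1 transcript. In whole tissue, fewer cells of a type and less RNA per cell cannot be told apart, which holds for every difference described.

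The thymus is where T cells are made. Precursors rearrange their T cell receptor genes there, divide, pass through a stage that carries both CD4 and CD8, and are selected by epithelial cells before they leave. The mesenteric lymph node drains the gut. It holds mature T cells that entered from blood through high endothelial venules, follicles of B cells, dendritic cells, sinus macrophages and a dense net of lymphatic vessels and fibroblastic stroma.

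Levels are given as log2(intensity + 16) after quantile normalization over the 8 arrays, so that a value of 4 is the floor and stands for an intensity listed at or below 0. Differences are thymus minus mesenteric lymph node within mice, and folds on this scale understate the change of dim genes. A probe set was called when its Benjamini-Hochberg adjusted p from limma, with the mouse as a block, was under 0.05 and the difference was at least 2-fold. Levels are never set between genes, since probe sets differ in brightness.

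The 8 arrays matched their labels. Rag1, Foxn1 and Ccl25 were higher in all 4 thymus arrays, and Ms4a1, Cd79a, Cr2 and Glycam1 were higher in all 4 mesenteric arrays, with no overlap. Trimmed mean intensities were 167 to 208 in thymus and 106 to 232 in mesenteric lymph node. The 3′ to 5′ signal ratio of the Actb control, a measure of RNA quality, was 1.34 to 1.78 in thymus and 1.6 to 1.74 in mesenteric lymph node. Among the reference arrays it was 3.25 and 3.58 in the spleen of wild type mice 1 and 2. It was 3.1 in the mesenteric array of transgenic mouse 1, and 2.25 and 2.23 in the thymus of transgenic mice 1 and 2. Its part in the reference values was not tested. Correlations between arrays were 0.968 to 0.984 within thymus, 0.944 to 0.984 within mesenteric lymph node and 0.853 to 0.904 between the tissues. The mesenteric array of mouse 2 stood apart. Its exocrine pancreas list, 13 genes for digestive enzymes and their kin, averaged 12.93, while the mesenteric arrays of the other 3 mice averaged 5.21 to 5.31 and the thymus arrays 5.07 to 5.36. The thymus array of mouse 2 averaged 6.95 over 16 skeletal muscle genes, against 5.27 to 5.49 in the other 3 thymus arrays and 5.03 to 5.37 in the mesenteric arrays.

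Of 27022 probe sets tested, 2946 were higher in thymus (10.9%) and 3096 were lower (11.5%). By adjusted p alone 51.3% differed in either direction. Without mouse 2 the counts at 2-fold were 2751 and 3205. A difference of at least 16-fold was reached by 68 probe sets in the higher and 90 in the lower direction, and at least 64-fold by 10 and 11. Where a gene had several probe sets, the brightest stood for it in the lists. On that basis 971 of 12865 genes tested were higher (7.55%) and 1921 were lower (14.9%), with a median log2 difference of -0.07 over all of them. Member counts below are to be read against these shares.

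The largest rises were genes of thymocytes and of thymic epithelium, and the largest falls were genes of B cells, sinus macrophages and vessels. Rag1, the recombinase subunit that cuts receptor gene segments, had levels of 12.88, 12.73, 12.88 and 12.78 in the thymus of mice 1 to 4, against 4.67, 5.03, 4.86 and 5.05 in their mesenteric lymph nodes. The log2 difference was 7.92 (SE 0.13, limma adjusted p = 1.25e-05). Glycam1, a mucin-like ligand of L-selectin made by high endothelial venules, was listed at or below 0 in all 4 thymus arrays and had levels of 12.92, 12.86, 12.95 and 12.96 in the mesenteric arrays. The groups lay far apart for both genes, in opposite directions.

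**Figure D1:**
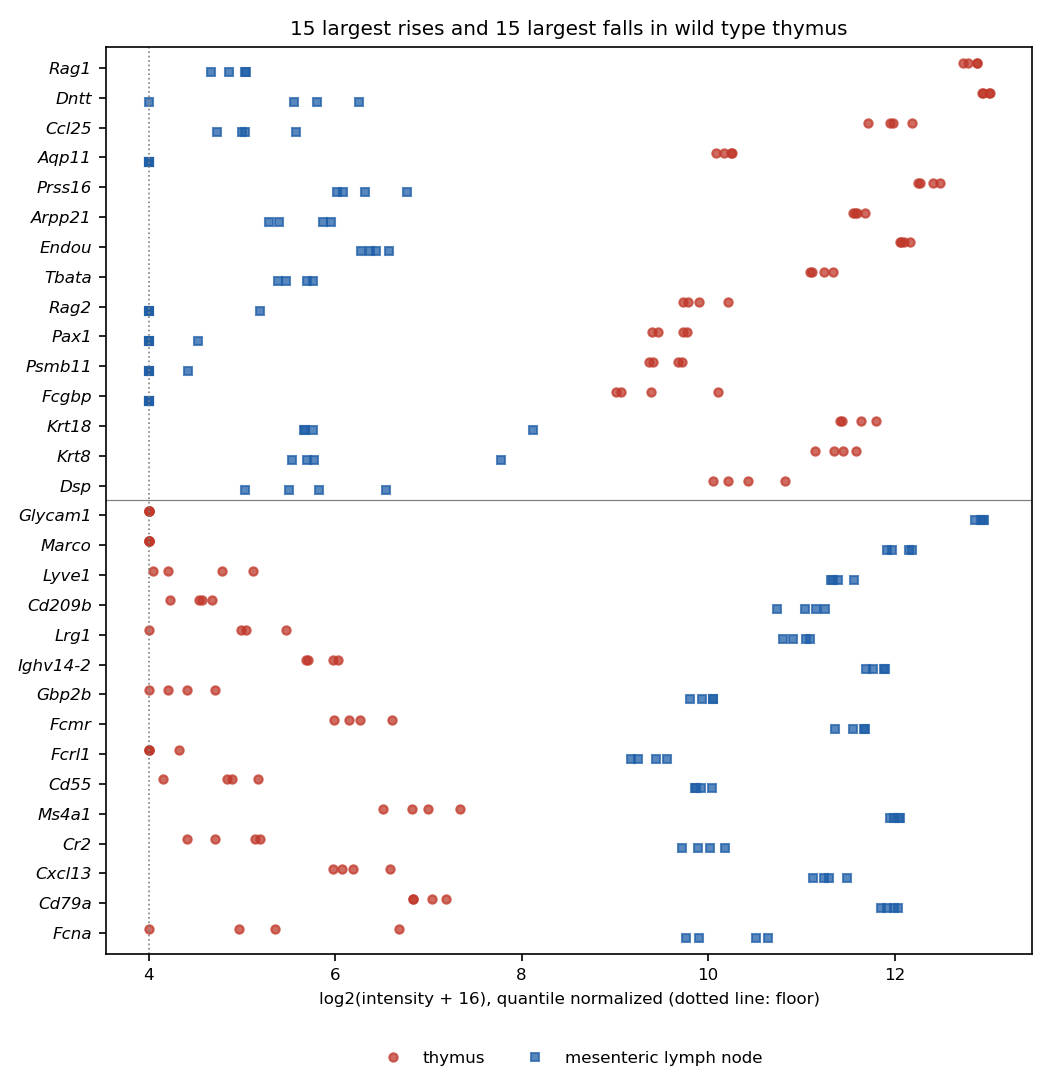
Levels of the 15 genes with the largest rises (upper rows) and the 15 with the largest falls (lower rows) in wild type thymus, 1 point per array, in log2(intensity + 16). Thymus (red circles) and mesenteric lymph node (blue squares) are apart for every gene drawn, and the dotted line at 4 is the floor. Krt18 and Krt8 each have 1 mesenteric array, that of mouse 2, well above the other 3.

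Rag1 and Dntt, of receptor gene rearrangement, were the 2 single genes with the largest rises. Of 12 measured genes of rearrangement and the pre-T cell receptor 7 were higher, none was lower and 5 were not called, with a median log2 difference of 2.13. Dntt, the polymerase that adds untemplated bases at the joints, had levels of 13.01, 13.02, 12.95 and 12.94 in thymus, against 5.81, 4, 6.26 and 5.56 in mesenteric lymph node. Rag2, the partner of Rag1, was between 9.73 and 10.21 in thymus and at the floor in 3 of 4 mesenteric arrays, with 5.19 in mouse 2. Ptcra, the invariant chain that pairs with a newly made beta chain, differed by 4.59 (SE 0.25, limma adjusted p = 0.000123). The end-joining factors did not move as a block. Lig4, the ligase of that pathway, rose by 3.32 and Xrcc6, the Ku70 subunit of the end-binding complex, by 3.05. Xrcc5, the Ku80 partner, differed by 0.38 (adjusted p = 0.109), Prkdc, the kinase subunit, by -0.03 (adjusted p = 0.886) and Nhej1 by -0.02 (adjusted p = 0.904).

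Genes known from the double positive stage were higher for 15 of 19 members, with none lower and a median of 2.74. Arpp21 had levels of 11.55, 11.57, 11.6 and 11.68 in thymus, against 5.4, 5.87, 5.29 and 5.96 in mesenteric lymph node. Aqp11, an aquaporin, had levels of 10.08 to 10.25 in thymus and was listed at or below 0 in all 4 mesenteric arrays. Endou, a ribonuclease, rose by 5.68 (SE 0.11). The coreceptors, which mature T cells of the node carry too, differed by less. Cd8a rose by 3.16 (SE 0.13) and Cd4 by 1.97 (SE 0.09). Themis, a signalling adaptor needed for positive selection, had levels of 11.09 to 11.24 in thymus and 8.12 to 8.59 in mesenteric lymph node. Among the 4 genes of the list that were not called were Cd24a, a surface glycoprotein of immature lymphocytes, at 0.14 (adjusted p = 0.374), and Cd1d1, which presents lipids to NKT cells, at -0.05 (adjusted p = 0.811).

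Of 16 measured transcription factors of the T lineage, 7 were higher, 2 were lower and 7 were not called. Myb, a regulator of precursor proliferation and survival, had levels of 12.49, 12.47, 12.47 and 12.59 in thymus, against 8.44, 7.58, 8.13 and 8.25 in mesenteric lymph node. Sox4 rose by 3.23, Bcl11b, which fixes T lineage identity, by 2.57, and Satb1, a chromatin organiser, by 2.35. Gata3 rose by 2.94 (SE 0.46), and its mesenteric array of mouse 2 was at the floor while the other 3 were at 6.19 to 6.35. The 2 falls were factors of later lineage choice. Zbtb7b, which directs the CD4 lineage, fell by 2.32 (SE 0.41), and Runx3, which directs the CD8 lineage, by 1.26 (SE 0.12).

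The Notch pathway, the signal that commits precursors to the T lineage, had no gene called higher among 18 and 5 called lower by their brightest probe sets, with a median of -0.31. Notch1, the receptor that acts in precursors, differed by 0.98 (SE 0.1, limma adjusted p = 0.000833) and stayed just under the 2-fold rule, which it passed without mouse 1 (1.02), and its other probe set was called higher, at 1.9. Its 4 thymus arrays, 10.33 to 10.43, lay above its 4 mesenteric arrays, 9.21 to 9.54. Dtx1, a Notch target that B cells also express, fell by 2.59, Psen2, a subunit of the cleaving secretase, by 2.51, and Lfng, a glycosyltransferase that modifies Notch, by 2. The other Psen2 probe set differed by -0.15 and was not called. For Notch2 the 2 probe sets were called in opposite directions, at -1.18 and 1.34, so that it is 1 of the 5 counted as lower but its direction is uncertain.

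The T cell receptor complex was higher for 8 of 17 genes and lower for none. Trat1, an adaptor that stabilises the complex, rose by 2.75, Cd28 by 1.81 and Lat, the scaffold of receptor signalling, by 1.67. Cd3e had levels of 11.26, 11.34, 11.47 and 11.14 in thymus, against 10.11, 9.8, 9.93 and 10.22 in mesenteric lymph node, a rise of 1.28 (SE 0.14, limma adjusted p = 0.00119). These rises were much smaller than those of the recombinases. Among genes of selection and death, 5 of 19 were higher and 3 lower, and without mouse 4 only 3 were higher. Bcl2l1, the survival factor of double positive cells, rose by 1.61. Bcl2, the survival factor of mature T cells, fell by 1.23 by its brightest probe set. Of the 5 Bcl2 probe sets, which ran from -1.23 to 0.05, only 2 were called lower. Egr1, Nr4a1 and Cd69, which receptor signalling induces, differed by 0.66, 0.59 and 0.03 and were not called.

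Of 21 measured genes of thymic epithelium 14 were called higher in thymus and none lower, with a median of 2.89 over all 21. Only 17 of the 21 passed the filter on dim probe sets, and a dim gene could pass through its thymus arrays alone, so the count is a description. Ccl25, the chemokine that draws CCR9-bearing precursors, had levels of 11.95, 12.18, 11.71 and 11.98 in thymus, against 4.73, 5, 5.58 and 5.03 in mesenteric lymph node. Prss16, the thymus-specific serine protease of cortical epithelium, rose by 6.05, and Psmb11, the thymoproteasome subunit, by 5.44, with 3 of its 4 mesenteric arrays at the floor. Foxn1, the master factor of this epithelium, rose by 3.37 (SE 0.17). Medullary genes were present as well. Aire, which drives display of tissue antigens in the medulla, had levels of 6.12 to 6.77 in thymus and 4 to 4.7 in mesenteric lymph node, but was too dim to be tested.

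Krt8 and Krt18, the keratin pair of simple epithelia, rose by 5.18 (SE 0.36) and 5.26 (SE 0.4). In mesenteric lymph node their levels were 7.78 and 8.12 in mouse 2, against 5.54 to 5.77 and 5.67 to 5.76 in the other 3 mice. Without mouse 2 the differences were 5.65 (SE 0.14) and 5.8 (SE 0.11). The same array carried the high pancreas list, and its part in the keratin values was not tested. Krt17 and Krt14, keratins of stratified epithelia, were listed at or below 0 in all 4 mesenteric arrays and had levels of 8.36 to 8.72 and 6.54 to 7.32 in thymus. Not every epithelial gene followed. The brighter Epcam probe set differed by -0.5 (adjusted p = 0.0916) while its other one rose by 2.16, and Cxcl12, which stroma of both organs makes, differed by -0.44.

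**Figure D2:**
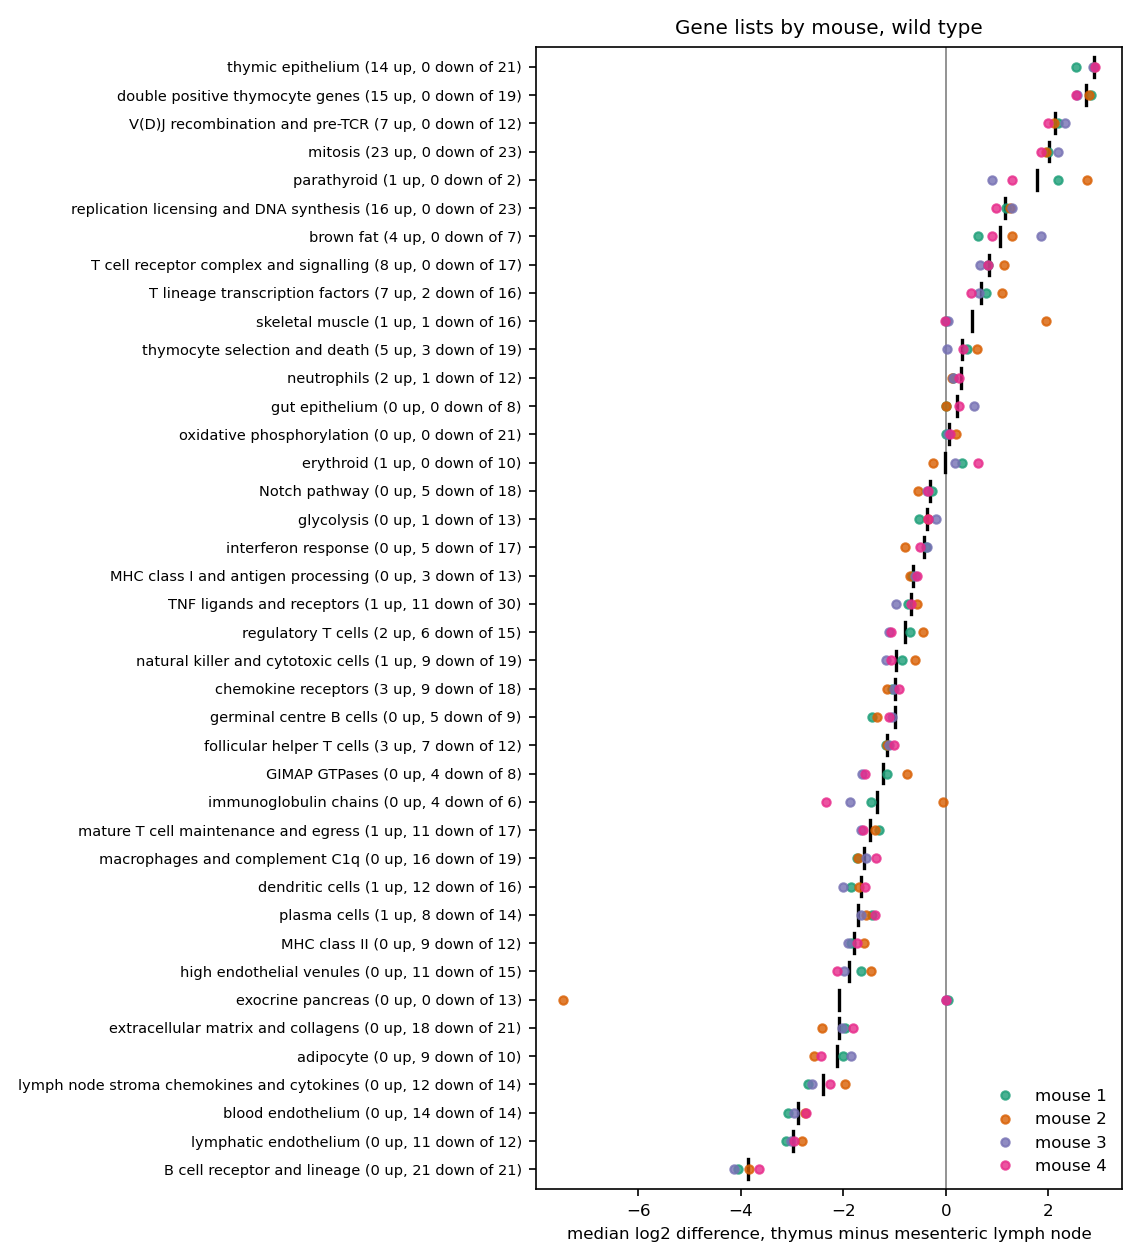
Median log2 difference of each gene list, thymus minus mesenteric lymph node, by mouse (coloured points), with the median over the fitted differences of its members (black bar); the counts beside each name give members called higher and lower. The 4 mice lie close together for most lists. The exocrine pancreas list is near -7 in mouse 2 and near 0 in the other 3, and the skeletal muscle list is near 2 in mouse 2.

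Cell division genes rose as a group. All 23 measured mitosis genes were called higher, with a median of 2.01, and 16 of 23 replication genes were higher with none lower and a median of 1.15. Top2a, the topoisomerase that untangles sister chromosomes, had levels of 11.98, 12.02, 12.02 and 11.85 in thymus, against 9.62, 9.52, 9.04 and 9.38 in mesenteric lymph node. Cenpf, a kinetochore protein, rose by 2.68 and Mki67, the Ki-67 protein of dividing cells, by 2.04. Ccna2, a cyclin of S phase and G2, rose least of the 23, by 1.03 (SE 0.13), and fell just short of 2-fold without mouse 1 or mouse 3 (0.99 and 0.95).

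Among replication genes, Rrm2, the regulated subunit of ribonucleotide reductase, rose by 2.14, and its other probe sets reached 6.19. Tyms, which makes thymidylate, rose by 2.18 and Cdc6, which loads the replicative helicase, by 2.08. The subunits of the replicative helicase were called in part. Mcm7 rose by 1.42 and Mcm2 and Mcm6 by 1.02 each. By their brightest probe sets Mcm3, Mcm4 and Mcm5 differed by 0.91, 0.83 and 0.75, each short of 2-fold. Of the 5 Mcm3 probe sets, which ran from 0.36 to 1.28, 3 were called higher. Fen1, which trims Okazaki fragments, differed by 0.29 (adjusted p = 0.0529). Thus nearly all members lay on the thymus side, and the mitosis genes lay further from 0 than the replication genes.

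**Figure D3:**
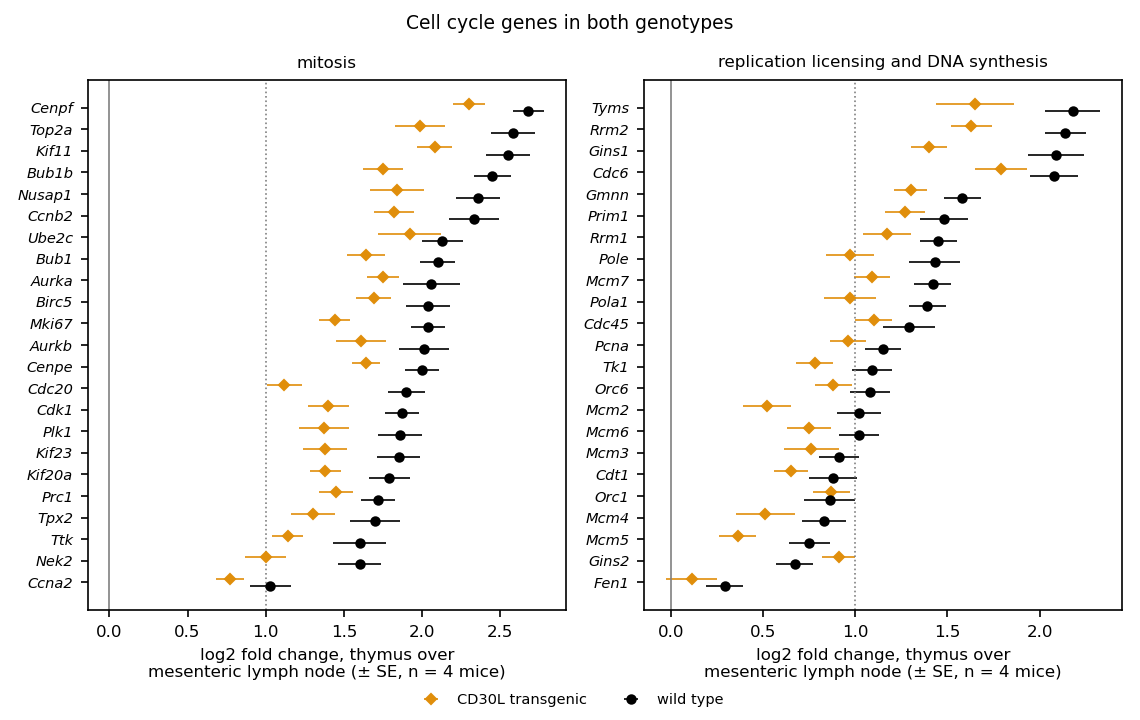
Log2 fold change, thymus over mesenteric lymph node, with its SE over 4 mice, for 23 mitosis genes (left) and 23 replication genes (right); orange diamonds are CD30L transgenic mice and black circles wild type mice. The dotted line marks 2-fold. All points lie right of 0, and Fen1 is nearest to it.

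The promoters of these 2 groups are shown because their members moved together. Windows run from 250 bases before to 50 bases after the gene start, and sequences are from RefSeq, build GRCm38.p6. The CHR element (TTTGAA), known as a mitotic promoter element, was found on either strand in 14 of the 19 mitosis genes with a window (73.7%) and in 18.1% of all 27025 windows. The CCAAT box (CCAAT) was in 17 of the 19 (89.5%) and in 37.9% of all. In replication genes, the E2F site (TTTGGCGC) was in 5 of 18 windows (27.8%), against 0.537% of all, and the CCAAT box in 13 of 18 (72.2%). A match describes the letters only. Ccnb2, a B-type cyclin that rose by 2.33, lies at chr9:70421505-70421804, minus strand; Top2a is at chr11:99024140-99024439, minus strand; Mcm6 is at chr1:128359656-128359955, minus strand. They are printed 5′ to 3′ along the gene. Capitals mark, on either strand, the CHR element and the CCAAT box in Ccnb2 and Top2a, and the E2F site and the CCAAT box in Mcm6.
Ccnb2: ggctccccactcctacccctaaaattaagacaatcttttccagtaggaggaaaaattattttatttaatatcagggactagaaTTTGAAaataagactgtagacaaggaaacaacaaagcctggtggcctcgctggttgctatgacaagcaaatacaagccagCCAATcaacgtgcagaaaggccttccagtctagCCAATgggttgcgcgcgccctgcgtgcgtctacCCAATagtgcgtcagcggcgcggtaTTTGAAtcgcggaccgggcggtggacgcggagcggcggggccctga
Top2a: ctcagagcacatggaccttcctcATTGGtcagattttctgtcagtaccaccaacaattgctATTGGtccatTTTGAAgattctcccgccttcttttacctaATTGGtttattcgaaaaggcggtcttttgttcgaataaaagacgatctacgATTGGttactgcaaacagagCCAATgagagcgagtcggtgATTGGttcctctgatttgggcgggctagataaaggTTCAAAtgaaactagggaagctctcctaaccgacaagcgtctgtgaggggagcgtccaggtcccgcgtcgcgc
Mcm6: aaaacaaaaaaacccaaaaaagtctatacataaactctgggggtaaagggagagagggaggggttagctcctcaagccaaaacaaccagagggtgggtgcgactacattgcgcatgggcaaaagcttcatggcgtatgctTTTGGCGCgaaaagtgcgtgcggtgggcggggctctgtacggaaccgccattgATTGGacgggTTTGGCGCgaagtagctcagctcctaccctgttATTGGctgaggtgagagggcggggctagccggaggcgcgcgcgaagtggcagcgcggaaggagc
Ccnb2 and Top2a hold CCAAT boxes upstream of, or interleaved with, the CHR element, and Mcm6 holds 2 E2F sites and no CHR element.

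The same windows were searched for 7 further motifs on both strands, and matches of different motifs may share bases. They were the E box (CANNTG), the EBF site, the octamer (ATTTGCAT), the Runx site (TGTGGT), the TATA box (TATAAA), the Ets site (CCGGAA) and the RORE core (AGGTCA). Over all windows they were in 72.1%, 0.914%, 1.75%, 16.9%, 14.2%, 15.2% and 16%. In 16 B lineage windows the E box was in 87.5%, and the EBF site and the octamer were in 1 each. In 11 windows of recombination genes the E box was in 81.8% and the Runx site in 1. The Ets site was in 8 of 19 mitosis windows (42.1%) and 7 of 18 replication windows (38.9%). The E box, Runx site, TATA box and RORE core were in 68.4%, 10.5%, 0% and 5.26% of mitosis windows. In replication windows they were in 61.1%, 22.2%, 11.1% and 16.7%.

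B cell genes made the opposite block. All 21 measured genes of the B cell receptor and lineage list were called lower, with a median of -3.85, and the 4 thymus arrays averaged 6.54 to 6.78 over the list, against 10.4 to 10.61 in the mesenteric arrays. Cd79a, a signalling chain of the receptor, had levels of 7.04, 6.84, 6.84 and 7.19 in thymus, against 11.99, 11.85, 11.92 and 12.03 in mesenteric lymph node. Ms4a1, which encodes CD20, fell by 5.09 (SE 0.15), Fcmr, the Fc receptor for IgM, by 5.31 (SE 0.14) and Cr2, a complement receptor of follicular B cells, by 5.09 (SE 0.21). Pax5 and Ebf1, the factors that set B lineage identity, fell by 2.33 and 3.44. B cell genes in thymus were low but not all at the floor, and Cd83, which activated cells of several lineages make, fell least, by 1.4.

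Immunoglobulin genes were less uniform. Of 6 measured, 4 were lower, and 2 were without mouse 1, mouse 3 or mouse 4. Igha, the heavy chain of IgA, had levels of 10.95, 12.84, 11.1 and 10.85 in thymus, against 12.96, 12.99, 13.09 and 13.16 in mesenteric lymph node, a fall of 1.62 (SE 0.37, limma adjusted p = 0.0155). The thymus of mouse 2 was high, and without that mouse the fall was 2.05 (SE 0.12). Within mice 1 to 4 the differences were -2.01, -0.16, -1.99 and -2.31. Leaving out any other mouse, with mouse 2 kept, gave limma adjusted p from 0.0567 to 0.0646. Thus the call depended on which mice were kept. All 3 Igha probe sets were called lower with the 4 mice, by 1.28 to 1.88. Ighg3 fell by 4.09 by its brightest probe set, and of its 2 tested probe sets only 1 was called. Ighm was measured by 11 probe sets, whose brightest differed by 0.19 (adjusted p = 0.256) and whose lowest by -6.02, so it is reported as uncertain.

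Plasma cell genes fell in 8 of 14, with 1 higher, and germinal centre genes in 5 of 9. Mzb1, a chaperone of antibody secretion, fell by 3.24 and Irf4, a factor of plasma cell fate, by 3.45. The other Irf4 probe set differed by -0.47 and was not called. Edem1, which clears misfolded proteins in many cell types, went the other way and rose by 2.12. Xbp1, the secretory factor that is not limited to plasma cells, differed by -0.16 (adjusted p = 0.214). Rgs13, a regulator of G protein signalling in germinal centre B cells, had levels of 4.83, 5.39, 4.71 and 4.89 in thymus, against 9.33, 8.54, 8.78 and 8.7 in mesenteric lymph node. Bcl6, the germinal centre repressor that thymocytes also express, differed by 0.82 by its brightest probe set and was not called. The other Bcl6 probe set was called higher, at 1.25.

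Genes of T cell maintenance and egress mostly went the other way from those of developing T cells. Of 17 maintenance and egress genes, 11 were lower, 1 was higher and 5 were not called, with a median of -1.47. S1pr1, the receptor that lets T cells leave the thymus, had levels of 6.45, 6.64, 7.02 and 7.18 in thymus, against 9.81, 9.67, 9.73 and 10.16 in mesenteric lymph node. Klf2, the factor that induces it, fell by 2.77 (SE 0.12), Ccr7, the receptor for lymph node entry, by 2.61 (SE 0.18) and Il7r, the IL-7 receptor, by 1.38 (SE 0.1). Cd27, a costimulatory receptor of the TNF family, was the exception and rose by 1.96 (SE 0.11). So maintenance and egress genes were mostly lower in the same arrays in which T cell receptor genes were higher or uncalled. B lineage genes (median -3.85) and blood endothelial genes (median -2.89) were lower in these arrays too. The part of those cells in these falls was not tested.

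Other T cell and innate lymphocyte groups fell in part. The GIMAP GTPases, which support survival of mature lymphocytes, were lower for 4 of 8, led by Gimap3 at -2.81. The regulatory T cell list was lower for 6 of 15 and higher for 2. Izumo1r, folate receptor 4, had levels of 4, 4, 4 and 4.84 in thymus and 8.68 to 9.17 in mesenteric lymph node, while Foxp3, the defining factor, differed by -0.63 (adjusted p = 0.0366) and was not called at 2-fold. Ikzf2, the Helios factor, rose by 1.6 and Il2ra, the high-affinity IL-2 receptor that precursors also carry, by 1.05, or 0.98 and short of the rule without mouse 1. Follicular helper genes were lower for 7 of 12 and higher for 3. They were led downward by Cxcr5, the follicle homing receptor, at -4.45, and upward by Sh2d1a, the SAP adaptor, at 3.06. Cxcr5 is also counted in the B lineage list, all of which was lower. Cytotoxic genes were lower for 9 of 19. Ccl5, a chemokine of effector T cells, fell by 3.18, and Gzma, a granule protease, rose by 2.04 (SE 0.11) with levels of 10.39 to 10.61 in thymus and 8.34 to 8.59 in mesenteric lymph node.

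Antigen presentation genes were called lower in part. Of 12 class II genes 9 were lower, with a median of -1.79, and of 13 class I genes 3 were lower, with a median of -0.63. H2-Ob, a modulator of peptide loading in B cells, had levels of 6.76, 6.9, 6.89 and 7.12 in thymus, against 11.28, 10.84, 11.26 and 11.26 in mesenteric lymph node. Ciita, the class II transactivator, fell by 2.45. By its brightest probe set, Cd74, the invariant chain, differed by -0.53 and H2-Ab1 by -0.81, neither reaching 2-fold, and H2-Aa fell by 1, while other probe sets of H2-Ab1 and H2-Aa fell by up to 1.81 and 2.3. Nlrc5, the class I transactivator, fell by 1.66, Tap1, a peptide transporter, by 1.16 and Tapbp, tapasin, by 1.24. Interferon response genes were lower for 5 of 17, led by Gbp3 at -2.46, and none was higher, while Ifit1, Ifit2 and Oasl2 differed by 0.71, 0.76 and 0.98 and were not called.

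Stroma and vessels formed the other large set of falls. All 14 blood endothelial genes were lower, with a median of -2.89, as were 11 of 12 lymphatic genes (median -2.98), 11 of 15 high endothelial genes (-1.89), 12 of 14 lymph node stroma genes (-2.4) and 18 of 21 matrix genes (-2.09). The lymphatic list also holds Madcam1 and Marco, which other cells make too, and 9 of its other 10 genes were lower. The stroma list holds the lymphotoxin genes Lta and Ltb, which other cells make too and which fell by 2.79 and 1.38. These lists share members, Madcam1, Pdpn and Emcn among them, so their counts are not separate. In thymus the high endothelial list averaged 5.35 to 5.71 and the lymphatic list 5.61 to 5.72. A gene this dim could pass the filter through its mesenteric arrays alone, so these counts are a description. Plvap, the diaphragm protein of fenestrated endothelium, had levels of 6.62, 6.62, 6.19 and 6.32 in thymus, against 10.96, 11, 10.92 and 10.78 in mesenteric lymph node. Lyve1, the hyaluronan receptor of lymphatic endothelium, fell by 6.86 (SE 0.17), and Flt4, the receptor for VEGF-C, by 4.85 (SE 0.14). Madcam1, the gut addressin, fell by 4.68 (SE 0.15). Cxcl13, the chemokine that builds B cell follicles, had levels of 6.59, 6.07, 5.98 and 6.19 in thymus, against 11.49, 11.29, 11.12 and 11.24 in mesenteric lymph node. Clu, clusterin, fell by 4.22, and Col1a1, a fibrillar collagen, by 3.47, while Il7, which stroma of both organs makes, differed by -0.13 (adjusted p = 0.694).

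Macrophage and dendritic cell genes fell with them. Of 19 macrophage and complement C1q genes 16 were lower, with a median of -1.59, and of 16 dendritic cell genes 12 were lower and 1 was higher. Marco, a scavenger receptor of sinus macrophages, was listed at or below 0 in all 4 thymus arrays and had levels of 12.18, 12.15, 11.97 and 11.92 in mesenteric lymph node. Cd209b, the SIGN-R1 lectin of the same cells, fell by 6.54 (SE 0.15) and Msr1, another scavenger receptor, by 4.51 (SE 0.15). General macrophage genes fell less. Csf1r, the growth factor receptor, fell by 2.55 and C1qa by 1.77, while Mertk, which takes up dying cells, fell by 1.1 and Cd163 differed by 0.45 (adjusted p = 0.0721). Siglech, a plasmacytoid marker, fell by 3.11 and Fscn1, fascin of mature dendritic cells, by 3. The 1 rise of that list was Ccr9, the CCL25 receptor that double positive thymocytes also carry, at 3.1 (SE 0.13).

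Receptors and ligands of the chemokine and TNF families were mostly lower where they were called. Of 18 chemokine receptors 9 were lower and 3 higher, namely Ccr9 (3.1), Cxcr4 (1.11) and Ccr4 (1.08). Of 30 TNF ligands and receptors 11 were lower and 1 higher, and 8 were too dim to test. Tnfrsf13c, the BAFF receptor, fell by 4.07 and Lta, lymphotoxin alpha, by 2.79. The ligand and receptor pair that the littermates' transgene concerns was not called. Tnfsf8, which encodes CD30L, had levels of 6.22, 5.93, 5.99 and 6.08 in thymus, against 6.32, 6.72, 6.41 and 6.14 in mesenteric lymph node (adjusted p = 0.12), and Tnfrsf8, the CD30 receptor, differed by 0.22 (adjusted p = 0.153).

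Few energy metabolism genes were called. None of 21 oxidative phosphorylation genes was called at 2-fold, with a median of 0.06 and differences from -0.16 in Sdha to 0.47 in Atp5b, and by adjusted p alone Atp5b (0.00902) and Atp5a1 (0.0302) passed. Of 13 glycolysis genes 1 was lower, the glucose transporter Slc2a1 at -1.3. Aldoa was not called by its brightest probe set, but 4 of its 5 probe sets were called lower, by up to 1.27.

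Genes from marker lists of neighbouring tissue differed between thymus and mesenteric lymph node. Where these transcripts came from was not tested. All 9 tested of 10 adipocyte genes were lower, and the list averaged 7.34 to 8.09 in thymus and 9.96 to 10.48 in mesenteric lymph node. Adipoq, adiponectin, fell by 3.09 (SE 0.3). Brown fat genes went the other way, with 4 of 7 higher. A dim gene could pass the filter through its thymus arrays alone, so this count is a description. Ucp1, the uncoupling protein, had levels of 5.81, 7.89, 9.61 and 8.16 in thymus and was listed at or below 0 in all 4 mesenteric arrays. Pth, parathyroid hormone, had levels of 9.29, 9.44, 7.73 and 6.96 in thymus, against 4.41, 4, 4.69 and 4.13 in mesenteric lymph node, a rise of 4.05 (SE 0.49). The spread among thymus arrays was wider for these genes than for those of thymocytes.

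No pancreas gene of the 9 tested was called in either direction, and their high values lay in a single array. Cpa1, carboxypeptidase A1, which did not pass the filter and was not tested, showed the same pattern. It was at 13.1 in the mesenteric lymph node of mouse 2 and at the floor in the other 7 arrays. The median of the pancreas list was -2.09 with mouse 2 and 0 without it. In the 4 transgenic mice the list had a median of -3.48, with 1 gene called lower. Of 7 tested muscle genes, Mylpf, a fast myosin light chain, rose by 2.53 in all 4 mice and Eno3 fell by 1.32. The neutrophil list averaged 6.07 to 6.55 in thymus and 5.9 to 6.66 in mesenteric lymph node. Its pair S100a8 and S100a9, calcium-binding proteins of myeloid cells, rose by 1.54 and 1.63, but the S100a9 arrays overlapped, and its adjusted p was 0.102 without mouse 1 and 0.057 without mouse 3. The erythroid list averaged 4.9 to 5.52 in thymus and 4.9 to 5.02 in mesenteric lymph node, and the gut epithelium list 4.79 to 5.22 and 4.71 to 4.84. The part of the adipocyte, brown fat, parathyroid, muscle and pancreas transcripts in other differences was not tested.

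**Figure D4:**
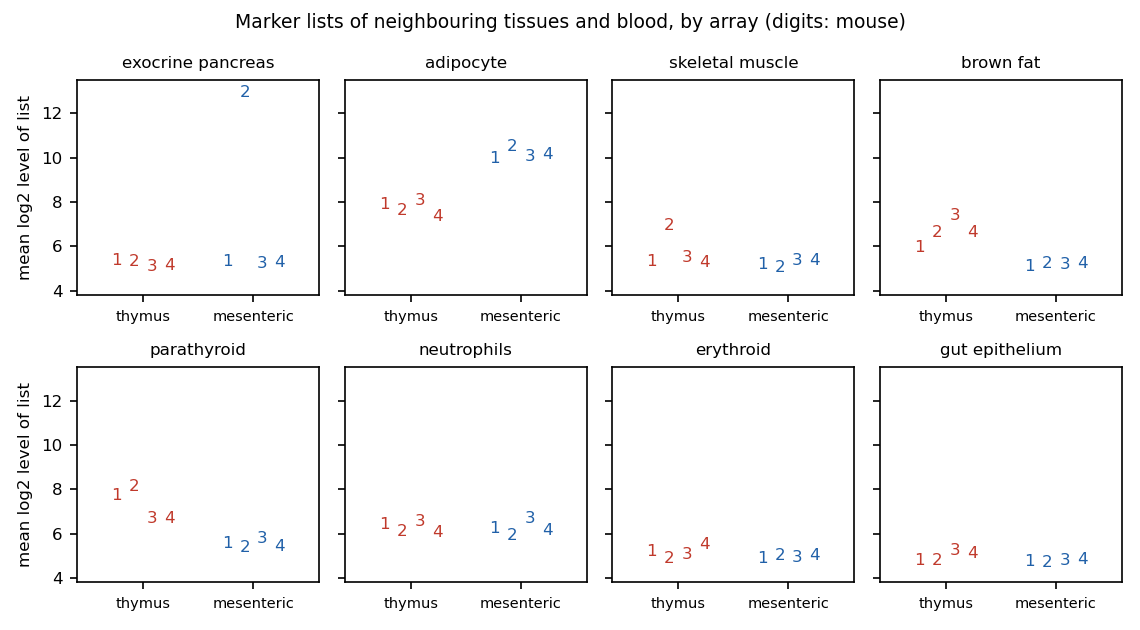
Mean log2 level of 8 marker lists for neighbouring tissues and blood in each array, thymus (red) left of mesenteric lymph node (blue); digits give the mouse. The pancreas list is high in 1 mesenteric array only, the adipocyte list is higher in all 4 mesenteric arrays, and the brown fat and parathyroid lists are higher in all 4 thymus arrays.

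The same tissue difference was taken in the 4 transgenic mice, which share no animal with the wild type comparison. In them 2440 probe sets were higher (9.03%) and 2801 lower (10.4%), and by adjusted p alone 48.4% differed. Of the probe sets tested in both genotypes, 2138 were higher in both, which is 88.4% of the transgenic and 76.2% of the wild type calls, and 2472 were lower in both, 91.3% and 80.8%. None was called in opposite directions, and of 5865 wild type calls 5859 had the same sign in transgenic mice. Tnfsf8 levels overlapped between the genotypes, and its probe set averaged 5.98 ± 0.46 in transgenic thymus and 6.08 ± 0.13 in wild type thymus, and 6.36 ± 0.04 in transgenic and 6.42 ± 0.24 in wild type mesenteric lymph node (SD, n = 4 each). Which part of the transgene transcript this probe set covers is not given in the sources used here, so it does not check the genotype labels.

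When the tissue difference of transgenic mice was set against that of wild type mice, no probe set was called. The smallest limma adjusted p was 0.91, and 1354 of 27022 probe sets (5.01%) had an unadjusted p under 0.05. Mitosis genes had a median of 1.61 in transgenic mice and 2.01 in wild type mice, with 22 and 23 of 23 called higher. For Top2a the difference between genotypes was -0.54 (adjusted p = 0.976). Replication genes were higher for 9 of 23 in transgenic mice and 16 of 23 in wild type mice, and B lineage genes had medians of -3.43 and -3.85. Other lists went the other way, with medians of -1.62 in transgenic and -1 in wild type mice for germinal centre genes and 3.04 and 2.89 for thymic epithelium. Differences between list medians were not tested.

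To see which differences belong to the mesenteric node and which to lymph nodes at large, mesenteric lymph node was set against peripheral lymph node in the same 4 wild type mice. The contrasts share the mesenteric arrays, and the difference equals the gap between the thymus-mesenteric and thymus-peripheral contrasts. In it, 163 probe sets were higher in mesenteric lymph node (0.603%) and 72 lower (0.266%), together 0.870%. Without mouse 1 the counts were 70 and 29, and without mouse 4 there were 102 higher. Of the 15 largest falls in thymus, Gbp2b, a guanylate-binding protein, and Fcna, ficolin A, were also higher in mesenteric than in peripheral lymph node, by 1.63 and 2.26. For the other 13, and for the 14 of the 15 largest rises that were tested, mesenteric and peripheral lymph node did not differ past the rule.

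Igha had levels of 13.06 to 13.26 in mesenteric lymph node and 9.06 to 10.21 in peripheral lymph node, a difference of 3.76 (SE 0.29, limma adjusted p = 3.89e-05), with thymus between at 10.99 to 12.94. Rgs13 was 2.85 higher in mesenteric than in peripheral lymph node, and Madcam1 2.15 higher. Of the 23 mitosis genes, 11 were higher in mesenteric than in peripheral lymph node, Mki67 by 1.46 and Top2a by 1.14. Mean Top2a levels were 12.07 in thymus, 10.8 in spleen, 9.53 in mesenteric and 8.39 in peripheral lymph node. For Mki67 spleen (11.58 to 12.36) overlapped thymus (11.73 to 11.95), and both lay above the lymph nodes. Csn2, beta-casein, was 2.82 higher in mesenteric than in peripheral lymph node, and at 7.34 to 7.9 its thymus arrays were near its mesenteric arrays, 7.68 to 8.66. Upk3b, a uroplakin of mesothelium, and Ptgis, the prostacyclin synthase, averaged 7.53 and 7.2 in mesenteric lymph node and were listed at or below 0 in all 4 peripheral arrays. Cpa3, a mast cell protease, was listed at or below 0 in all 4 mesenteric arrays and averaged 8.06 in peripheral lymph node. The chemokines Ccl8 and Ccl12 were lower in mesenteric than in peripheral lymph node, at -3.8 and -3.51, as were Cidea, a lipid droplet protein of brown fat, at -3.27 and Cd209d, a lectin, at -2.8. In thymus Ccl8 was at 7.3 to 7.7 beside 7.58 to 8.04 in mesenteric lymph node.

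**Figure D5:**
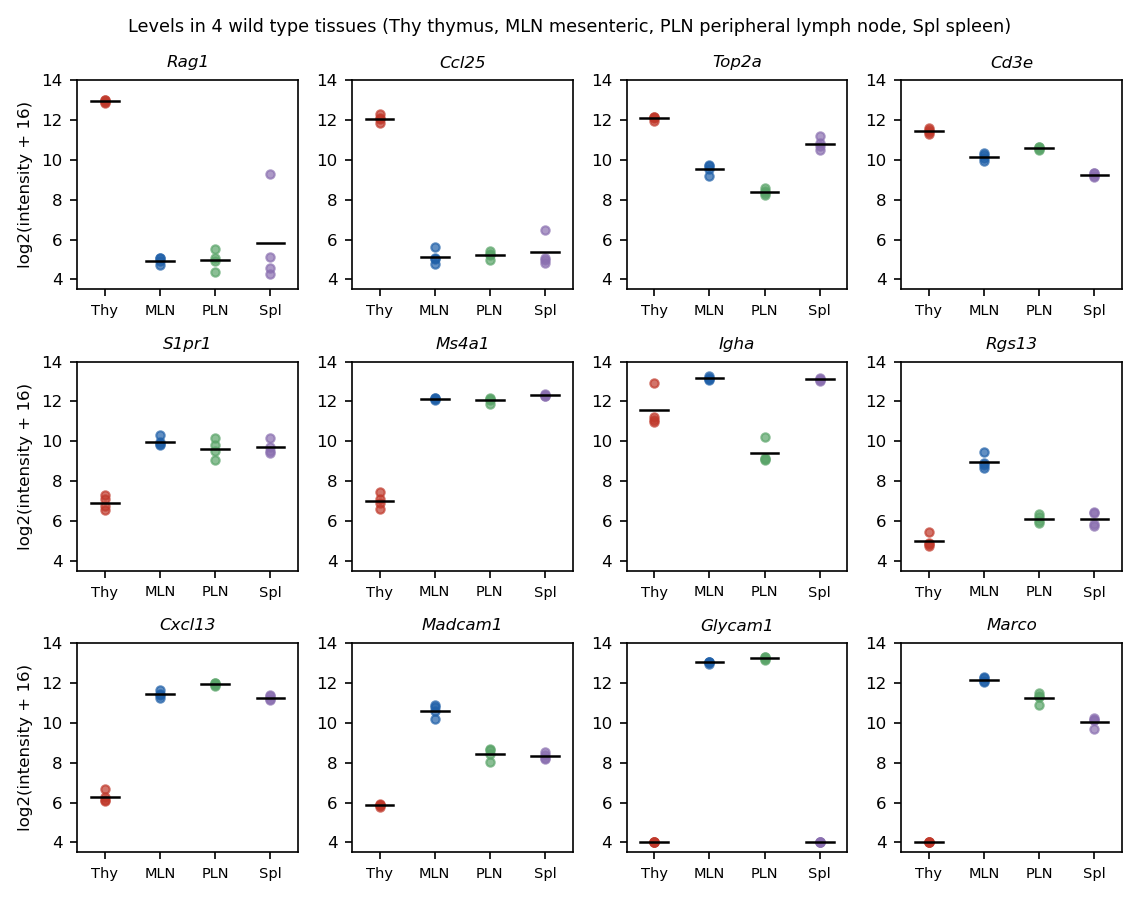
Levels of 12 genes in 4 wild type tissues, 1 point per array and a black bar for the mean, in log2(intensity + 16) after normalization over the 16 arrays. Rag1 and Ccl25 are high in thymus, with 1 spleen array raised; Glycam1 is at the floor in thymus and spleen; and Igha and Rgs13 are higher in mesenteric than in peripheral lymph node.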

How the data were processed

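The deposited values were linear intensity values for 45101 probe sets per array, per the deposited table itself; some are negative, so some signal had been subtracted by the authors, and for the algorithm and any scaling, the method is not stated in the labels. RNA extraction used a column kit and labelling used biotin, per the labels. Negative intensities were set to 0, 16 was added, log2 was taken and the 8 arrays were quantile normalized. After 64 control probe sets were left out, the 27022 with a mean above the 40th percentile were tested with limma 3.58.1 in R 4.3.3, thymus minus mesenteric lymph node with the mouse as a block, since both tissues come from 1 animal. Correlations of same-mouse deviations were -0.087 to 0.077. The other comparisons were fitted likewise, on the transgenic arrays alone, on within-mouse differences of 16 arrays, and on the 16 wild type arrays. The scripts were tested on simulated data.

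Of the 45037 probe sets used, 34945 had 1 gene symbol in the platform's annotation, which can be old, 932 had several and 9160 had none there. Of 672 entries in 40 gene lists 602 matched. Named genes are the 15 largest rises and 15 largest falls with groups apart, the leading called members and the brightest uncalled members of each list, tissue checks, and the 5 largest in each direction between mesenteric and peripheral lymph node; any further gene was picked with its values in view. The members and lists were chosen with earlier results of these data known. Precision is limited by the number of mice, 4 per genotype. Alternatives were pseudocounts of 1 and 64, other normalizations and filters, adjusted p alone, limma's treat test, moderation and array weights, the block left out or random, all 16 arrays together, and each mouse left out.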

Additional observations from a re-analysis of the deposited data

Results flagged for a closer look

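In groups of 4, single arrays that lay far from the other 3 were listed when the gap to the nearest made up most of the group's range, by Dixon's test. This was so for 26 of 308 gene groups and 8 of 80 list groups, and chance alone gives about 1 in 20 where values vary freely. The 308 include groups with all 4 arrays at the floor, such as Glycam1 and Marco in thymus, which could not be listed. Where the other 3 arrays are all at the floor of 4, as for Fezf2, Pax1, Rag2, Psmb11, Fcrl1 and Izumo1r, any value above it is listed, and that rate does not hold. The mesenteric array of mouse 2 had the most. It was high for the exocrine pancreas list (12.93, others 5.21 to 5.31), Krt18 (8.12), Krt8 (7.78), Rag2 (5.19, others 4) and Adipoq (12.35, others 11.74 to 11.83). It was low for Gata3 (4, others 6.19 to 6.35), Cd69 (8.6), Gimap9 (8.57), H2-Ob (10.84), Nlrc5 (9.57), the GIMAP list (10.06, others 10.35 to 10.41) and the V(D)J list (6.48, others 6.7 to 6.72). The trimmed mean of this array, 106, was also the lowest of the 8.

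The mesenteric array of mouse 1 was high for Fezf2 (4.66), Pax1 (4.53) and Mcm5 (10.24) and low for Themis (8.12), and that of mouse 4 was high for Psmb11 (4.42). Among thymus arrays, mouse 1 was high for Clec10a (4.9) and Tnfrsf8 (6.18) and low for Lta (4) and Madcam1 (5.7). Mouse 2 was high for Igha (12.84, others 10.85 to 11.1) and the skeletal muscle list (6.95). Mouse 3 was high for Flt4 (4.61) and low for the GIMAP list (8.79) and the T lineage factor list (9.7). Mouse 4 was low for the mitosis list (9.79, others 10.08 to 10.11), the replication list (9.64, others 9.82 to 9.85), Ccnb2 (10.32) and Cdc6 (8.79), and high for Cd74 (12.8), Fcrl1 (4.33), Izumo1r (4.84) and Myb (12.59).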

How the results depend on the processing

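Counts of called probe sets kept their direction and lay within 1.5 times the reported counts under the alternatives not named here. In wild type, a pseudocount of 64 gave 1711 higher, adjusted p alone gave 7556 higher and 6303 lower, and limma's treat test against 2-fold gave 1054 and 1557. Without the replicate block the counts were 2962 and 3105, so the pairing changed little, and leaving out 1 mouse gave 2751 to 3050 higher and 2950 to 3205 lower. In transgenic mice the same settings gave 1455 higher (pseudocount of 64), 6959 and 6110 (adjusted p alone) and 819 and 1244 (treat), a filter at the 60th percentile, which tests fewer probe sets, gave 1845 lower, and without the replicate block there were 2410 and 2801. For the difference between genotypes, no normalization gave 2 calls, and leaving out 1 mouse gave 0 to 1. For mesenteric against peripheral lymph node, a pseudocount of 64 gave 79 and 41, no normalization 94 higher, the 60th percentile filter 36 lower, adjusted p alone 395 and 194, treat 20 and 9, no replicate block 180 and 74, and leaving out 1 mouse 70 to 119 higher and 29 to 59 lower; the cause was not tested. Without normalization the median of all tested probe sets was 0.17 in wild type and the share of calls that were higher was 56.5% in place of 48.8%; in transgenic mice these were 0.19 and 57.8% in place of 46.6%, and for the lymph nodes -0.22 and 49.5% in place of 69.4%. Over all alternatives, 2659 values of single genes kept their call, 33 lost it, 16 gained it and none reversed; 669 list counts and 704 list medians stayed close and 51 and 56 moved. At a pseudocount of 64 Runx3 (-0.99), Ccna2 (0.99) and Il2ra (0.72) fell short of 2-fold, at a pseudocount of 1 Zbtb7b had an adjusted p of 0.0523, and without replicate block S100a9 had 0.0597.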

Other observations

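Other gene families, grouped by the stem of their symbol, were looked at after the data had been seen. Of 209 families with at least 8 tested genes, 17 had at least 50% of them called, and those named here are from these 17. Of 10 tested Toll-like receptor genes, sensors of microbial molecules, 6 were lower in thymus and none was higher, led by Tlr1 (-3.92), Tlr3 (-2.88) and Tlr7 (-2.04), while Tlr9 differed by -0.01 (adjusted p = 0.975). Of 12 cadherins 5 were lower and 2 higher, with the epithelial cadherin Cdh1 up by 3.36. Of 10 genes of calcium/calmodulin kinases and their inhibitors 3 were higher, led by Camk4 (3.28), a kinase known in thymocytes, and 2 were lower, Camk1 (-1.79) and the inhibitor Camk2n1 (-1.01). Of 8 beta tubulins 3 were higher, Tubb2b by 2.57, and 1 was lower, Tubb6 by -1.11. Of 13 C-type lectin genes 9 were lower, with a median of -1.57, and of 10 immunoglobulin kappa variable genes 9 were lower, with a median of -2.28.

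The balance of calls changed with how a gene is annotated. Among the brightest probe set of each gene, 7.55% were higher and 14.9% lower in thymus. Among further probe sets of the same genes the shares were 13.6% and 9.04%, and among probe sets with no gene or several genes 14.6% and 6.65%. In transgenic mice the 3 pairs were 6.71% and 13.3%, 11.4% and 8.14%, and 11.8% and 6.02%. The median mean level was 7.86 for the first class, 7.01 for the second and 6.5 for the third. What brought this about was not tested.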
